A study of Homo sapiens with 4 samples.

Results

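The genes of the autophagy machinery were examined by name: 42 genes of 16878 in the expression tables. They were placed in 8 role groups by their known parts in the pathway, and were chosen with earlier results of these data known. RNA-seq gave their mRNA levels in PANC-1, a human cell line established from a pancreatic carcinoma. The Control group was 2 libraries from cells given a control transfection, and the siSIRT1 group was 2 libraries from cells transfected with a small interfering RNA (siRNA) that targets SIRT1, both taken after 48 h. All 4 libraries came from this 1 cell line with no other agent named, and the siRNA lowers a transcript without deleting the gene. The comparison asked which autophagy transcripts differed once SIRT1 mRNA was depleted.

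Macroautophagy delivers cytoplasm to the lysosome inside a double-membraned vesicle, the autophagosome. A kinase complex around ULK1 starts the process, and a class III PI3-kinase complex around BECN1 and PIK3C3 marks the site with a phosphoinositide lipid. The growing membrane is fed with lipid and is decorated with small ubiquitin-like proteins of the ATG8 family, which are attached to lipid by a conjugation system and bind the receptors that bring in cargo. SIRT1, a deacetylase that uses NAD, is known to act on several autophagy proteins. Transcript levels, the only measure used here, say nothing of protein amounts, of LC3 lipidation or of autophagic flux.

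Values are FPKM (fragments divided by transcript length and by the mapped total of the library), so levels of different genes can be set side by side. Between libraries the comparison still depends on scaling. The FPKM values summed to between 397094 in Control 2 and 426279 in siSIRT1 1. The libraries held an estimated 8640000 to 9190000 reads, and 12123 to 12171 genes reached 1 FPKM in each. SIRT1 itself was at 10.5 and 10.3 FPKM in the Control pair against 1.80 and 2.05 FPKM in siSIRT1, leaving 18.6% of the Control level. Of the keratin genes of ductal epithelium, KRT8 was at 2272 and 2164 FPKM in Control against 2745 and 2529 FPKM in siSIRT1, KRT18 at 1587 and 1484 against 1914 and 1770 FPKM and KRT19 at 327 and 313 against 394 and 365 FPKM, so these 3 were higher in both siSIRT1 libraries. KRT7 was at 2.89 to 4.04 FPKM. The mesenchymal marker VIM was lower, at 2198 and 2049 against 1503 and 1427 FPKM. The acinar genes PRSS1 and CPA1 were at 0.15 FPKM or less, the endothelial gene PECAM1 was at 0.59 to 0.75 FPKM and the leukocyte gene PTPRC was at 0.97 to 1.29 FPKM. CD68, a lysosomal glycoprotein also used as a macrophage marker, was at 63.0 and 60.8 FPKM in the Control pair against 42.3 and 39.1 FPKM in siSIRT1, and the part of these marker differences in the results was not tested. Fewer cells of a type and less RNA per cell cannot be told apart in bulk RNA.

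The sequences of the siRNA and of the promoters of some members are shown first. The siRNA is given because its seed (bases 2 to 8 of the antisense strand, in capitals) can also pair with other transcripts. Its sense strand, which the study lists, matched the SIRT1 transcript at 1 place, bases 1149 to 1167 of 4107, and matched no member's transcript over its full length.
siSIRT1 sense strand: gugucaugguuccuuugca
siSIRT1 antisense strand: uGCAAAGGaaccaugacac

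The promoters of 3 members follow, each from 250 bases before to 50 bases after the start site in RefSeq (GRCh38.p14): GABARAPL1 as the member with the largest rise, VMP1 as the member with the largest fall, and ATG3 as the only member whose promoter held TCACGTGA, a binding word of the TFEB family. Capitals mark the motifs found. RefSeq gave such a promoter for 36 of the 42 members.
GABARAPL1, chr12:10212627-10212926, plus strand: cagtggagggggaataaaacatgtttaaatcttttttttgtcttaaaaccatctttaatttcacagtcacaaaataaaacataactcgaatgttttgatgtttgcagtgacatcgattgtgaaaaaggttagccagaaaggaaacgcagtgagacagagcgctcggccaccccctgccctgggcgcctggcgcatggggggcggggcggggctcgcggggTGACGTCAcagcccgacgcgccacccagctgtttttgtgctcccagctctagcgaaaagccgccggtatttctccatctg
VMP1, chr17:59707404-59707703, plus strand: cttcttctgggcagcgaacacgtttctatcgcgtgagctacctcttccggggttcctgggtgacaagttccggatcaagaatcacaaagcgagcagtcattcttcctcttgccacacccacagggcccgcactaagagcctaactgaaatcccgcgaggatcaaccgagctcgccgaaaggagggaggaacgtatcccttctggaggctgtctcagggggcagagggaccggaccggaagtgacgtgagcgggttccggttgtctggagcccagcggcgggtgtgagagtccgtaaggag
ATG3, chr3:112561913-112562212, minus strand: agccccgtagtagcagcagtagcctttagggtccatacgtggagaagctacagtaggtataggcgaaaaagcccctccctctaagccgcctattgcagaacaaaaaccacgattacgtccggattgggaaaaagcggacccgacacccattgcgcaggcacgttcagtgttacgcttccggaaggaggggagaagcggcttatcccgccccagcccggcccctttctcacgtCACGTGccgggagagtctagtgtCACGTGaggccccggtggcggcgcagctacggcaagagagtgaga

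TFEB, TFE3 and MITF bind the E-box CACGTG, most often within the longer word TCACGTGA of the CLEAR network of lysosomal genes. Both strands were searched, and each match of the longer word is also a match of the shorter. CACGTG was in the promoters of ATG14 and ATG3, 5.56% of the 36. It was in 7.43% of the 27305 promoters in RefSeq and in 10.3% of the 9984 promoters of tested genes. TCACGTGA was in the promoter of ATG3 alone, where it surrounds the second word in capitals. It was in 1.04% of all promoters and 1.96% of those of tested genes. The FOXO word GTAAACA was in the CALCOCO2 promoter (3.41% of all, 2.21% of tested genes). The antioxidant response element TGACNNNGC was in those of CALCOCO2 and MAP1LC3B (13.6% of all, 15.1% of tested genes). In the GABARAPL1 promoter, none of these words was present. It held the palindromic cAMP response element TGACGTCA from base -30, a word searched for only after this promoter had been read. That word was in 1.98% of all promoters and 3.29% of those of tested genes. None of these words was found in the VMP1 window. A match in letters is not a bound site, and its absence from this window says nothing of the factor.

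The members spanned a wide range of levels. SQSTM1, the gene of the cargo receptor p62, was the 111th most abundant of all genes in Control at 432 ± 5.58 FPKM (SD, n = 2 in this and every group). GABARAP followed at 129 ± 1.17 FPKM, VMP1 at 82.4 ± 0.23 FPKM, ATG9A at 60.1 ± 2.41 FPKM and ULK1 at 45.6 ± 0.66 FPKM. At the low end, ATG4C was at 1.85 ± 0.76 FPKM, STX17 at 2.33 ± 0.08 FPKM and PIK3C3 at 3.29 ± 0.51 FPKM. ATG2B was at 0.69 and 0.88 FPKM in the Control pair against 0.60 and 0.88 FPKM in siSIRT1. Its mean was under 1 FPKM, so it was left out of the test, and 41 members were tested.

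**Figure D1:**
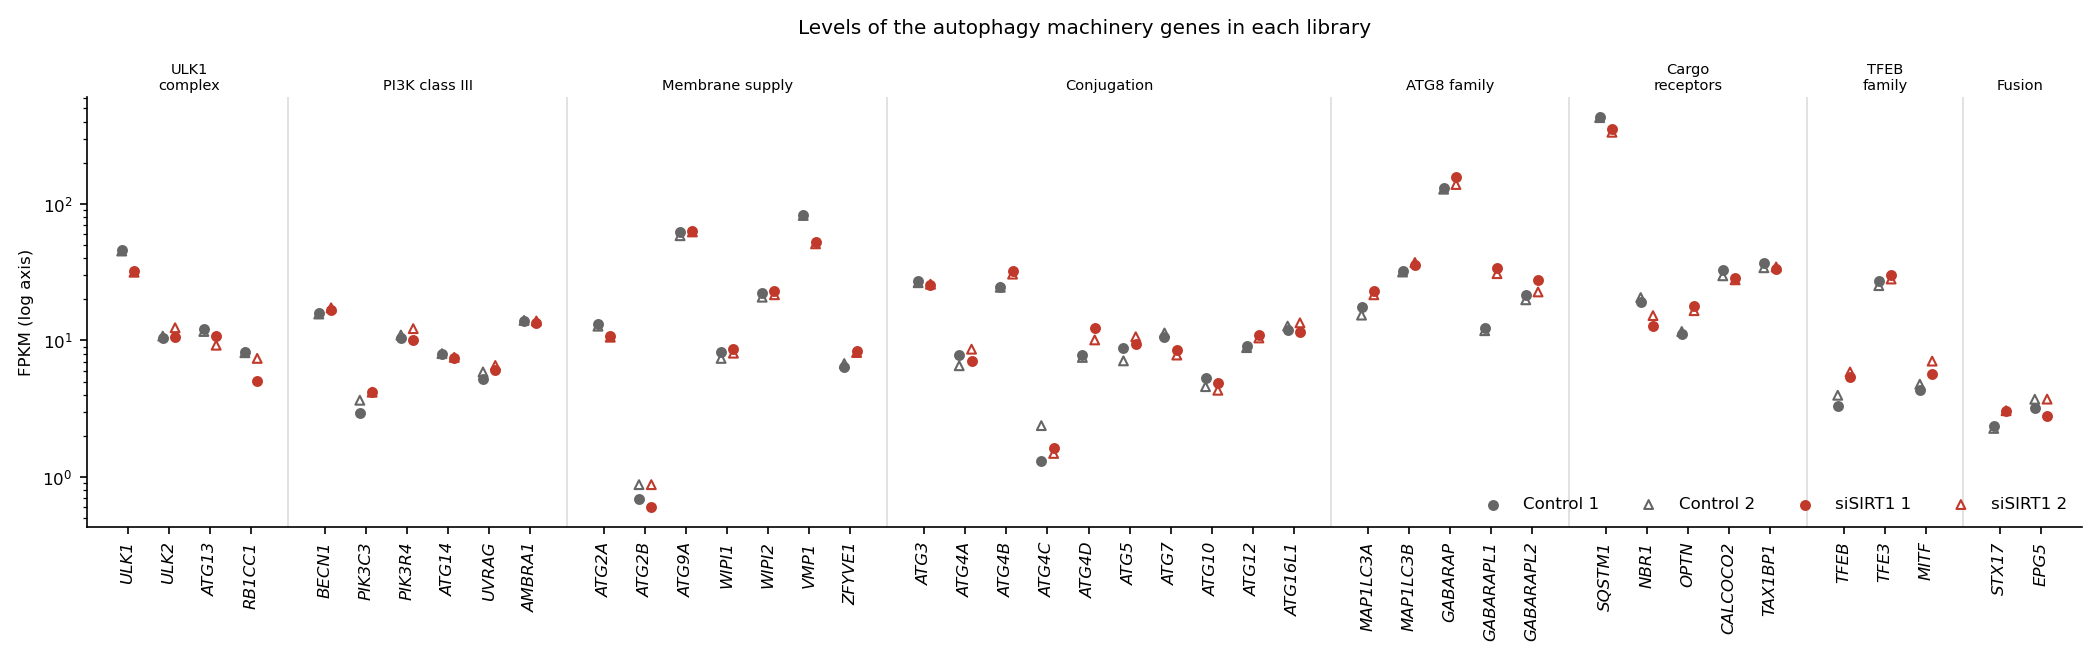
FPKM of the 42 members in each library, on a log axis and grouped by role, with Control in grey, siSIRT1 in red, and replicates 1 and 2 as filled circles and open triangles. SQSTM1 lies highest at 334 to 435 FPKM and ATG2B lowest at 0.60 to 0.88 FPKM, and the symbols of the groups stand clearly apart for GABARAPL1, VMP1 and ULK1.

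Of the 41 tested members, 14 had an adjusted p under 0.05 (limma on log2(FPKM + 1), Benjamini-Hochberg over all 12191 tested genes), which is 34.1% against 37.1% of all tested genes. The members' share was close to that of all genes. GABARAPL1, OPTN, TFEB, ATG4D, MAP1LC3A, MITF, ATG4B and ZFYVE1 were higher in siSIRT1, 8 members where 24.0% of all genes were higher. VMP1, ULK1, NBR1, ATG7, SQSTM1 and ATG2A were lower, 6 members where 13.1% of all genes were lower. In 30 of the 41 members the groups did not overlap, against 69.0% of all genes. The median log2 fold change was 0.08 over the members and 0.07 over all genes.

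The split between rises and falls depended on how libraries were scaled. With median-of-ratios scaling, which centred all genes near 0 (a median of 0.0016), 6 members were higher and 8 lower, and all genes split into 2041 higher and 2030 lower in place of 2930 and 1591. Of the 14 calls, 10 held under all 9 alternatives run on the 4 libraries, and 6 also held when any 1 library was left out: GABARAPL1, OPTN and ATG4B among the rises, and VMP1, ULK1 and NBR1 among the falls. Without Control 1 the members called fell to 8, and without Control 2 to 7. The labels do not say that the libraries came from separate cultures, so every p measures only the spread between these samples, which may be technical.

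**Figure D2:**
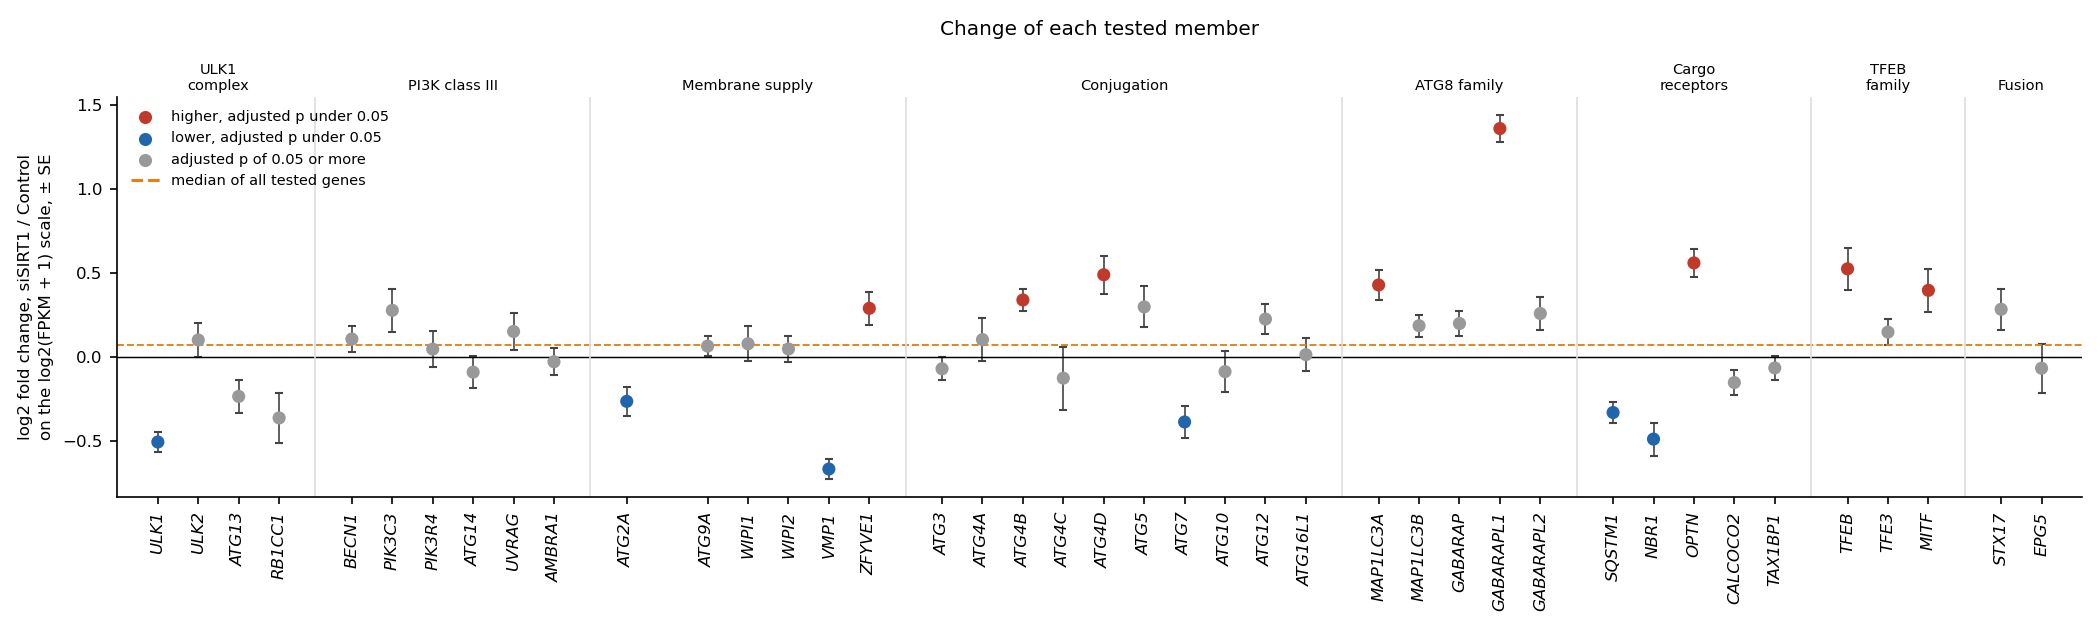
Log2 fold change of siSIRT1 over Control for the 41 tested members (points, ± SE from limma), grouped by role, with called rises in red, called falls in blue and the rest in grey. GABARAPL1 stands apart at 1.36, VMP1 is lowest at -0.66, and the dashed line marks the median of all tested genes at 0.07.

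In the ULK1 kinase complex, which starts autophagosome formation and is held in check by mTORC1, the catalytic subunit fell. ULK1 (chromosome 12) was at 46.1 and 45.1 FPKM in the Control pair against 32.2 and 31.6 FPKM in siSIRT1. Both siSIRT1 libraries lay well below both Control libraries, with 1458 to 2220 reads behind each value. The log2 fold change was -0.50 ± 0.06 (± SE, adjusted p 0.000489), and 69.9% of the Control level remained. Its partners RB1CC1 and ATG13 did not pass. RB1CC1, which encodes FIP200, was at 8.19 and 8.13 against 5.07 and 7.39 FPKM, where the siSIRT1 libraries differed from each other by more than siSIRT1 2 differed from Control. Its adjusted p was 0.0924, ran from 0.0282 to 0.231 over the alternatives, and was 0.00785 without siSIRT1 2 and 0.366 without siSIRT1 1. In these fits its log2 fold change was -0.59 and -0.13. ATG13, the regulatory subunit, was at 12.1 and 11.6 against 10.7 and 9.23 FPKM, with an adjusted p of 0.0980 that ran from 0.0419 to 0.159 and was 0.0370 without siSIRT1 1 and 0.359 without Control 1. ULK2, the paralog of ULK1, was at 10.4 and 10.8 against 10.5 and 12.4 FPKM, and its groups overlapped. The share of this group called was thus 25%, against 37.1% of all tested genes. With median-of-ratios scaling ULK1, ATG13 and RB1CC1 all passed as lower, a share of 75%, against 33.4% of all genes. That scaling also raised the falls among all genes from 1591 to 2030.

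None of the 6 genes of the class III PI3-kinase group passed the test, where 37.1% of all tested genes did. BECN1, the scaffold, was at 15.9 and 15.6 FPKM in the Control pair against 16.8 and 17.3 FPKM in siSIRT1. PIK3C3, the lipid kinase VPS34, was at 2.93 and 3.65 against 4.19 and 4.18 FPKM, with an adjusted p of 0.125. The other 4, PIK3R4, ATG14, UVRAG and AMBRA1, had log2 fold changes from -0.09 to 0.15. At an unadjusted p under 0.05 by limma there were again 0 of 6 in this group, a level at which all genes were not counted. Under the alternatives on all 4 libraries 0 of 6 passed, while 21.5% to 44.2% of all tested genes did. The standard errors ran from 0.08 to 0.13 on the log2 scale, so changes of this size could not be told from the spread.

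Among the genes that supply membrane, VMP1 showed the largest fall of any member. VMP1 (chromosome 17), a scramblase of the endoplasmic reticulum needed for the autophagosome to grow and detach, was at 82.5 and 82.2 FPKM in the Control pair against 52.3 and 51.0 FPKM in siSIRT1. The replicates were close together in both groups, and the groups were far apart. The log2 fold change was -0.66 ± 0.06 (adjusted p 9.00e-05), and it stayed between -0.75 and -0.65 in every fit run. ATG2A, a lipid transfer protein that bridges the endoplasmic reticulum and the growing membrane, was at 13.2 and 12.7 against 10.7 and 10.6 FPKM, a log2 fold change of -0.26 ± 0.08 (adjusted p 0.0404). ZFYVE1, which encodes DFCP1 of the omegasome, was at 6.44 and 6.77 against 8.44 and 8.16 FPKM, a log2 fold change of 0.29 ± 0.10 (adjusted p 0.0479).

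Of these calls, those of ATG2A and ZFYVE1 stood close to the threshold. The adjusted p of ATG2A ran from 0.0161 to 0.0553 over the alternatives and was 0.254 without Control 1, 0.160 without Control 2, 0.0579 without siSIRT1 1 and 0.0680 without siSIRT1 2. That of ZFYVE1 ran from 0.0382 to 0.131 and was 0.259, 0.160, 0.101 and 0.0618 without the same libraries in turn. ATG9A, the lipid scramblase of the vesicles that seed the membrane, was at 61.8 and 58.4 against 63.7 and 62.3 FPKM and did not pass. WIPI1 and WIPI2, which read the phosphoinositide mark, had log2 fold changes of 0.08 and 0.05, and the groups of each overlapped.

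The conjugation system attaches ATG8 proteins to lipid: ATG7 is the activating enzyme, ATG3 and ATG10 are the carrier enzymes, the ATG12, ATG5 and ATG16L1 complex directs the transfer, and the ATG4 proteases prepare and remove ATG8 proteins. In this group ATG7 was lower and ATG4B and ATG4D were higher, while 7 of 10 did not pass. The share called was 30%, against 37.1% of all tested genes. ATG7 (chromosome 3) was at 10.6 and 11.3 FPKM in the Control pair against 8.51 and 7.82 FPKM in siSIRT1. Its log2 fold change was -0.38 ± 0.10 (adjusted p 0.0140). Across the alternatives the adjusted p lay between 0.00607 and 0.0421, and it was 0.0558 without Control 1 and 0.128 without Control 2. The carrier enzymes did not pass. ATG3 was at 27.2 and 26.5 against 25.3 and 25.8 FPKM, and ATG10 had a log2 fold change of -0.09.

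ATG4B, the protease with the broadest action on the family, was at 24.6 and 24.5 FPKM in the Control pair against 32.1 and 30.6 FPKM in siSIRT1. Its log2 fold change was 0.34 ± 0.07 (adjusted p 0.00488), and no single library decided the call. ATG4D was at 7.83 and 7.51 against 12.4 and 10.1 FPKM, a log2 fold change of 0.49 ± 0.11 (adjusted p 0.00947). That p ran from 0.00116 to 0.0520 over the alternatives and was 0.0503 without Control 2. ATG4A and ATG4C, with groups that overlapped, did not pass. In the complex that directs the transfer, ATG5 was at 8.85 and 7.09 against 9.36 and 10.6 FPKM (adjusted p 0.0866) and ATG12 was at 9.16 and 8.86 against 11.0 and 10.4 FPKM (adjusted p 0.0829). ATG16L1, their partner, was at 12.0 and 12.7 against 11.6 and 13.5 FPKM and overlapped between the groups.

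All 5 members of the ATG8 family had higher values in both siSIRT1 libraries than in either Control library, and 2 of them passed the test. Over all tested genes, groups that did not overlap were found in 69.0%, a positive change in 60.1% and a called rise in 24.0%. GABARAPL1 (chromosome 12), also known as GEC1, was at 12.2 and 11.8 FPKM in the Control pair against 33.9 and 30.8 FPKM in siSIRT1, with 203 and 191 reads against 529 and 503 reads behind these values. The siSIRT1 libraries held 2.70 times the Control level. The log2 fold change of 1.36 ± 0.08 (adjusted p 1.34e-05) was the largest in either direction among the 41 members and stayed between 1.24 and 1.42 in every fit run. MAP1LC3A, which encodes LC3A, was at 17.4 and 15.3 against 23.1 and 21.6 FPKM, a log2 fold change of 0.43 ± 0.09 (adjusted p 0.00535). That p ran from 0.000311 to 0.0378 over the alternatives and was 0.0594 without Control 2.

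The remaining 3 ATG8 genes fell just short of the threshold. MAP1LC3B, the gene of the LC3B protein used as a marker of autophagosomes, was at 32.0 and 31.7 FPKM in the Control pair against 35.6 and 37.2 FPKM in siSIRT1, with an adjusted p of 0.0505. GABARAP was at 130 and 128 against 158 and 139 FPKM, with an adjusted p of 0.0585, and GABARAPL2 was at 21.6 and 19.8 against 27.5 and 22.6 FPKM, with an adjusted p of 0.0707. These values turned on single libraries in both directions. The adjusted p was 0.0406 for MAP1LC3B without siSIRT1 1, and 0.00589 for GABARAP and 0.0132 for GABARAPL2 without siSIRT1 2. Without Control 2 it was 0.276 for MAP1LC3B, 0.276 for GABARAP and 0.313 for GABARAPL2.

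The changes of the ATG8 genes depended on a correction for transcript length. Their transcripts measured 964 bases for MAP1LC3A, 974 for GABARAPL2, 1319 for GABARAP, 1883 for GABARAPL1 and 2147 for MAP1LC3B. When each library's smooth trend on length was removed, MAP1LC3A went from 0.43 to 0.23 on the log2 scale, GABARAPL2 from 0.26 to 0.07, GABARAP from 0.20 to 0.05 and MAP1LC3B from 0.19 to 0.07. GABARAPL1 went from 1.36 to 1.24. The adjusted p then was 0.0378 for MAP1LC3A and 1.07e-06 for GABARAPL1, and 0.432 to 0.562 for the other 3. All 5 log2 fold changes stayed above 0 in every fit run.

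The makeup of the ATG8 pool differed between the groups. The 5 genes summed to 210 ± 4.46 FPKM in Control and 265 ± 19.7 FPKM in siSIRT1. GABARAPL1 held 5.75% and 5.71% of that sum in Control and 12.2% and 12.3% in siSIRT1. GABARAP held the most in every library, 60.9% and 61.9% in the Control pair against 56.9% and 55.2% in siSIRT1. MAP1LC3B held 15.1% and 15.3% in the Control pair against 12.8% and 14.8% in siSIRT1. The shares of GABARAPL1 and GABARAP did not overlap between the groups, nor did those of MAP1LC3A and MAP1LC3B, while those of GABARAPL2 did. For levels, groups that did not overlap were found in 69.0% of all tested genes. The shares of MAP1LC3A nearly touched, at 8.19% and 7.42% in Control against 8.31% and 8.61% in siSIRT1. These shares add up to a whole, so a rise in one lowers the rest, and they were described without a test.

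**Figure D3:**
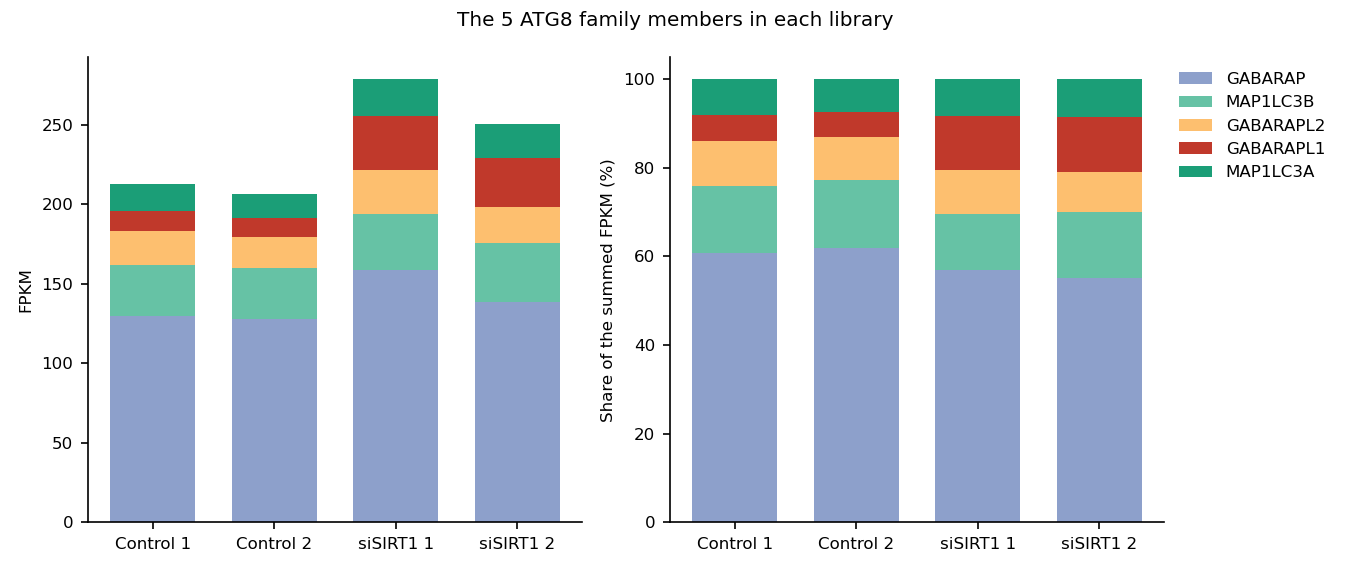
Summed FPKM of the 5 ATG8 family genes in each library (left, stacked bars from 0) and the share of each gene in that sum (right, in %). The GABARAPL1 segment, in red, widens from 5.75% and 5.71% in Control to 12.2% and 12.3% in siSIRT1, while GABARAP stays the largest segment.

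Cargo receptors link ubiquitinated material to ATG8 proteins, and among them SQSTM1 and NBR1 fell while OPTN rose. That is 3 of 5 called (60%), against 37.1% of all tested genes. SQSTM1 (chromosome 5) was at 435 and 428 FPKM in the Control pair against 353 and 334 FPKM in siSIRT1, with at least 8336 reads behind each value. The log2 fold change was -0.33 ± 0.06 (adjusted p 0.00363). Across the alternatives the adjusted p lay between 4.53e-05 and 0.0271, and it was 0.0946 without Control 1 and 0.0718 without Control 2. NBR1, a receptor related to p62 in its domains, was at 19.2 and 20.6 against 12.7 and 15.2 FPKM, a log2 fold change of -0.49 ± 0.10 (adjusted p 0.00512). OPTN, the optineurin receptor for damaged mitochondria and bacteria, was at 11.1 and 11.6 against 17.9 and 16.5 FPKM, a log2 fold change of 0.56 ± 0.09 (adjusted p 0.00133). CALCOCO2 (NDP52) and TAX1BP1 had log2 fold changes of -0.15 and -0.06 and did not pass.

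Some members share transcript sequence with a neighbouring gene, and how such reads were counted is not given in the sources used here. For SQSTM1, 53.4% of its 50-base words also lie in transcripts of MRNIP, counting both strands. MRNIP was at 94.4 and 93.3 FPKM in the Control pair against 83.6 and 72.0 FPKM in siSIRT1, the same direction as SQSTM1. ATG7 shares 29.3% of its words with VGLL4, which was at 18.1 and 19.4 against 15.4 and 16.5 FPKM, again in the direction of its neighbour. ATG4D shares 14.9% with KRI1, which was at 17.9 and 18.9 against 22.5 and 20.3 FPKM, also in the direction of its neighbour. By limma MRNIP passed (adjusted p 0.0227, up to 0.0904 over the alternatives), while VGLL4 (0.0601) and KRI1 (0.0729) did not. Without strand, reads of such overlapping pairs cannot be told apart. GABARAP shares 65.3% with other annotated transcripts and MAP1LC3B shares 18.3% with its near copy MAP1LC3B2, so their values are uncertain in the same way, as are those of ATG9A, BECN1, WIPI1 and ATG14, which share 47.9%, 36.4%, 26.4% and 21.5% with other genes. ULK1, MAP1LC3A, ATG2A, ATG4B, NBR1, TFEB and MITF shared 0% of their words, GABARAPL1 1.69% and VMP1 0.63%.

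The TFEB family, the transcription factors of lysosomal and autophagy genes, was higher in siSIRT1 for 2 of its 3 genes. Over all tested genes 24.0% were called higher. With median-of-ratios scaling 1 of the 3 was called higher. TFEB was at 3.30 and 3.97 FPKM in the Control pair against 5.43 and 5.88 FPKM in siSIRT1, with 68 and 80 against 106 and 120 reads. The log2 fold change was 0.52 ± 0.12 (adjusted p 0.0107). Across the alternatives the adjusted p lay between 0.00267 and 0.0480, and it was 0.0980 without Control 1. MITF was at 4.37 and 4.78 against 5.68 and 7.06 FPKM, a log2 fold change of 0.40 ± 0.13 (adjusted p 0.0385). That p ran from 0.0133 to 0.108 and was 0.191 without Control 1, 0.0880 without Control 2 and 0.139 without siSIRT1 2. TFE3, the most abundant of the family at 27.3 and 25.2 against 30.3 and 28.2 FPKM, did not pass. It held 74.2% to 78.1% of the family's summed FPKM in Control and 68.5% to 73.2% in siSIRT1, so TFEB and MITF remained the minor forms.

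Neither of the fusion factors passed, where 37.1% of all tested genes did. STX17, the SNARE that autophagosomes carry to meet the lysosome, was at 2.38 and 2.27 FPKM in the Control pair against 3.04 and 3.06 FPKM in siSIRT1, with an adjusted p of 0.101 and 139 to 188 reads behind each value. The tether EPG5 had a log2 fold change of -0.07 and groups that overlapped.

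**Figure D4:**
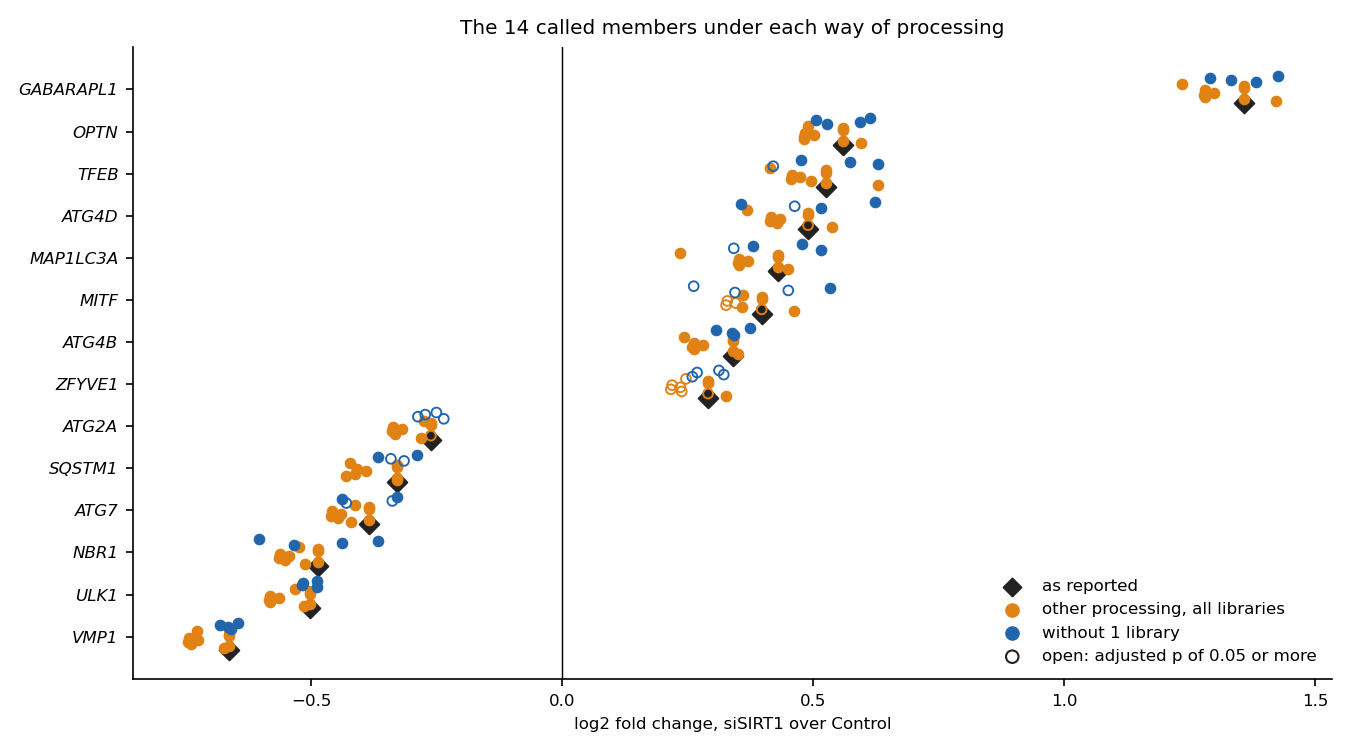
Log2 fold change of the 14 called members as reported (diamonds), under 9 other ways of processing all 4 libraries (orange) and without each library in turn (blue), with open symbols where the adjusted p was 0.05 or more. No member changes sign, GABARAPL1 and VMP1 stay filled throughout, and ZFYVE1, ATG2A and MITF hold most of the open symbols.

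Genes around the machinery were read from 6 further lists, whose counts stand against 24.0% called higher and 13.1% called lower over all tested genes. The kinase complex mTORC1 restrains ULK1 when nutrients are plentiful, and the list of mTORC1 and its inputs held both activators and inhibitors. Of its 21 genes, 8 were higher and 1 was lower (42.9% called, against 37.1% of all genes). The median log2 fold change was 0.16 against 0.07 over all genes. With median-of-ratios scaling 5 were higher and 2 lower (33.3% called, against 33.4% of all genes). The 1 fall without that scaling was that of DEPTOR, an inhibitor of mTOR, at 6.11 and 6.58 FPKM in the Control pair against 1.24 and 1.25 FPKM in siSIRT1. Its log2 fold change of -1.71 ± 0.12 (adjusted p 3.27e-05) exceeded that of every member in size. The largest rise was that of RRAGD, a Rag GTPase that recruits mTORC1 to the lysosome, at 0.69 and 0.77 against 2.31 and 2.49 FPKM (log2 fold change 0.97, adjusted p 0.000846). Of the 10 tested genes of AMPK and its kinases, the energy sensor that activates ULK1, PRKAG1 alone passed (10% called), at 34.9 and 36.7 against 30.4 and 27.0 FPKM (log2 fold change -0.31, adjusted p 0.0136). The adjusted p of PRKAG1 was up to 0.0544 over the alternatives and 0.116 without Control 2.

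Among 13 tested other core autophagy genes, 4 were higher and 2 lower (2 and 2 with median-of-ratios scaling), with a median of 0.12. That is 46.2% called, against 37.1% of all genes. With median-of-ratios scaling the share was 30.8%, against 33.4% of all genes. With eBayes without the trend it was 15.4%, against 32.8% of all genes. RUBCN, an inhibitor of the UVRAG complex, rose most, from 5.81 and 6.05 to 8.23 and 8.31 FPKM (log2 fold change 0.42, adjusted p 0.0109). WDR45, the gene of WIPI4 that partners ATG2 proteins, fell most, from 26.9 and 32.9 to 22.6 and 22.9 FPKM (log2 fold change -0.37, adjusted p 0.0155). The adjusted p of RUBCN was at most 0.0320 over the alternatives and was 0.0878 without Control 1 and 0.0563 without Control 2. That of WDR45 was up to 0.0798, and 0.176 without Control 2, 0.0638 without siSIRT1 1 and 0.0515 without siSIRT1 2. MAP1LC3C, the third LC3 gene, was at 8.54 and 8.04 against 7.42 and 8.38 FPKM and overlapped between the groups.

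Of 13 SNARE, HOPS and tethering genes, 5 were higher and 0 lower (5 and 2 with median-of-ratios scaling), with a median of 0.20. The share called, 38.5%, was close to the 37.1% of all genes. With median-of-ratios scaling it was 53.8%, against 33.4% of all genes. VPS18, a core subunit of the HOPS tether, rose most, from 15.1 and 16.1 to 24.9 and 24.9 FPKM (log2 fold change 0.64, adjusted p 0.000353). VAMP8 and YKT6 were looked at after their values were seen, as lysosomal and autophagosomal SNAREs that act beside STX17. VAMP8 was at 70.8 and 74.8 against 117 and 105 FPKM (log2 fold change 0.60, adjusted p 0.000378), and YKT6 was at 41.98 and 40.1 against 54.6 and 52.6 FPKM (log2 fold change 0.38, adjusted p 0.00209). With the trend on transcript length removed these values were 0.36 for VAMP8 and 0.28 for YKT6.

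Of 16 tested other cargo receptors, 8 were higher and 1 was lower (3 and 2 with median-of-ratios scaling), with a median of 0.15. The share called was 56.2%, against 37.1% of all genes, and 31.2% with median-of-ratios scaling, against 33.4% of all genes. TOLLIP, a ubiquitin-binding receptor, rose most, from 25.5 and 24.8 to 38.9 and 40.4 FPKM (log2 fold change 0.64, adjusted p 0.000211). CALCOCO1, a receptor for the endoplasmic reticulum and a relative of CALCOCO2, fell, from 22.1 and 23.4 to 16.6 and 14.6 FPKM (log2 fold change -0.52, adjusted p 0.00217). Of 20 lysosomal genes known as CLEAR targets of TFEB, 5 were higher and 6 lower (3 and 7 with median-of-ratios scaling), with a median of -0.07. The share called was 55%, against 37.1% of all genes. ATP6V0D1, a subunit of the proton pump, rose most, from 23.7 and 19.7 to 38.4 and 35.9 FPKM (log2 fold change 0.75, adjusted p 0.000460). The protease gene CTSD fell most, from 1305 and 1261 to 940 and 848 FPKM (log2 fold change -0.52, adjusted p 0.00117), with an adjusted p of at most 0.0214 over the alternatives and of 0.0508 without Control 1.

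**Figure D5:**
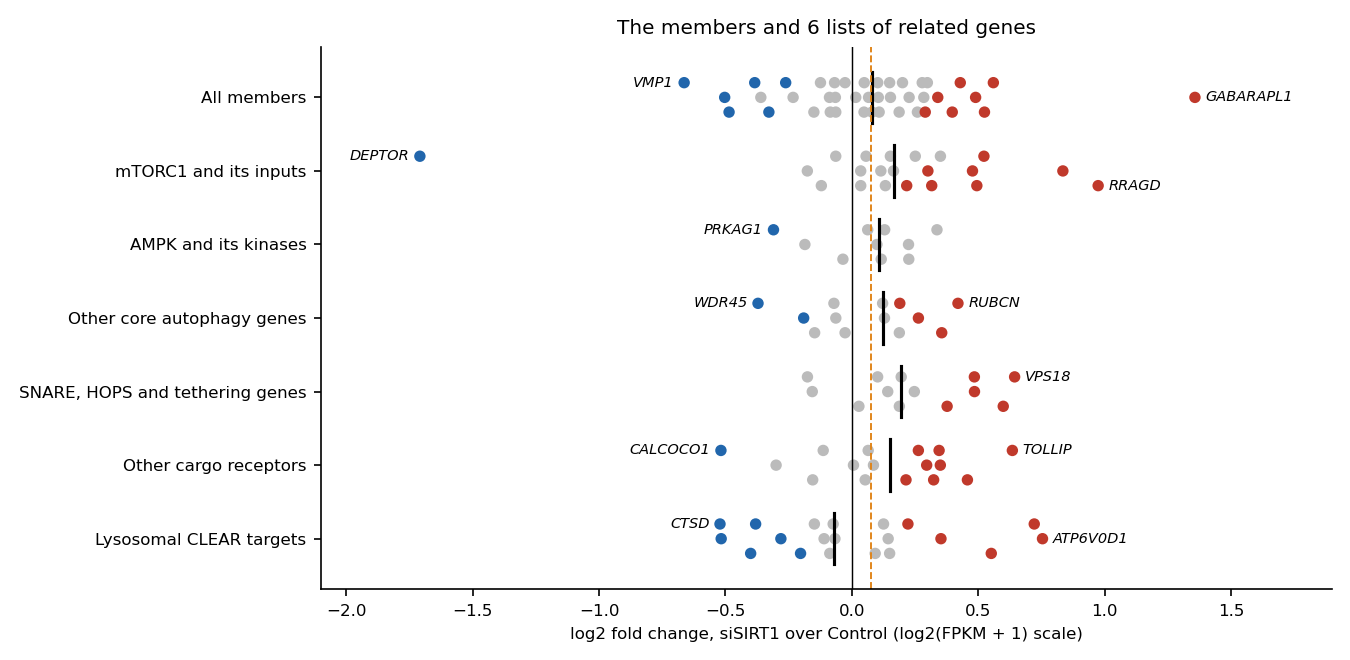
Log2 fold change of each tested gene among the members and in 6 lists of related genes, with called rises in red, called falls in blue, the rest in grey, a black bar at each median and the dashed line at the median of all tested genes (0.07). The list medians run from -0.07 for the CLEAR targets to 0.20 for the SNARE, HOPS and tethering genes, and DEPTOR lies lowest at -1.71.

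The siRNA seed was read against the members' 3' UTRs. The 7-base site of the antisense seed, CCTTTGC, was in 7 of 41 members (17.1%), against 15.8% of the 11803 3' UTRs of tested genes. These were ATG5, CALCOCO2, PIK3C3, STX17, ULK1, ULK2 and WIPI2, of which ULK1 alone was called. The site of the sense strand, CATGACA, was in 5 members (12.2%, against 10.3%), among them GABARAPL1. Over all genes the median log2 fold change was 0.06 with the antisense site and 0.08 without it. Whether the siRNA acted on ULK1 through this site was not tested.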

How the data were processed

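RNA-seq of 2 Control and 2 siSIRT1 libraries of PANC-1 cells was analysed. The authors deposited 1 table of FPKM values per library, rounded to 2 decimals, for 16878 genes. The submitters' processing notes name HISAT, Bowtie2, RSEM and ChIPseeker, with no role stated. The genome build, the strand setting and the handling of shared reads are not given in the sources used here. FPKM is scaled to each library's total, so abundant genes that change can shift all others.

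Symbols were updated through a RefSeq gene table (GRCh38.p14), which matched 16846 identifiers. The 12191 genes whose mean reached 1 FPKM were tested on log2(FPKM + 1) with limma (version 3.58.1, R 4.3.3; lmFit and eBayes with a trend), two-sided, adjusted by the Benjamini-Hochberg method over all of them, with a threshold of 0.05. Fold changes on this scale understate changes of weakly expressed genes. The test was checked on simulated data. Depth was estimated from steps of 1 read in low FPKM values of 124 to 137 single-exon genes per library, and reads per gene are approximate. Transcripts and 3' UTRs came from GENCODE release 44 mapped to GRCh37.

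The members and the lists were chosen with earlier results of these data known. Any member could be named. Members with an adjusted p under 0.10 are given in every library, and from each other list the largest called rise and fall are named. The alternatives were a pseudocount of 0.1, no filter, quantile, median-of-ratios, equal-sum and upper-quartile scaling, a replicate block, eBayes without a trend, removal of the trend on transcript length (lowess span 0.3), and leaving out each library. Ranges of adjusted p leave out the fits without 1 library.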

Additional observations from a re-analysis of the deposited data

How the results depend on the processing

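None of the 14 called members reversed its direction under any alternative. The number of members called stayed between 12 and 19 under the alternatives on all 4 libraries, except with no filter on low values. That exception set aside, 32.8% to 44.2% of all tested genes were called. With no filter 10 members were called (23.8%, against 21.5% of all genes), 5 higher and 5 lower. With the trend on transcript length removed, 7 members were higher and 10 lower. All genes then split into 2290 higher and 2379 lower, in place of 2930 and 1591. Without 1 library the members called ran from 7 to 14, with 4 to 8 higher and 3 to 6 lower. Over all genes the calls without 1 library ran from 2691 to 4608, with 1721 to 2874 higher and 970 to 1734 lower, and the lowest were those without a Control library. The log2 fold change of SIRT1 ran from -2.02 to -1.90 without 1 library. GABARAPL1 held 6.51 percentage points more of the ATG8 sum in siSIRT1, and 6.34 with MAP1LC3B2 and MAP1LC3C in the sum.

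Some members that did not pass changed sign, from reported log2 fold changes between -0.12 for ATG4C and 0.11 for BECN1. With quantile, median-of-ratios, equal-sum and upper-quartile scaling in turn, PIK3R4 was at -0.022, -0.029, -0.0086 and -0.026, WIPI2 at -0.029, -0.031, -0.010 and -0.029, and ATG16L1 at -0.061, -0.062, -0.042 and -0.060. ATG9A was at -0.028, -0.017 and -0.014 with quantile, median-of-ratios and upper-quartile scaling. With the trend on transcript length removed, BECN1 was at -0.0099, WIPI1 at -0.042, ATG4A at -0.011 and ATG16L1 at -0.061. Without 1 library the value ran from -0.0067 to 0.21 for ULK2, from -0.076 to 0.17 for PIK3R4, from -0.0032 to 0.10 for WIPI2, from -0.027 to 0.24 for ATG4A, from -0.40 to 0.15 for ATG4C, from -0.17 to 0.0020 for ATG10, from -0.083 to 0.11 for ATG16L1 and from -0.22 to 0.087 for EPG5. Members outside the calls that passed in some fit were, beside those named in the report, ATG3 (-0.20, adjusted p 0.0413) with the length trend removed, CALCOCO2 with the length trend removed (-0.22, adjusted p 0.0430) and with quantile (-0.23, 0.0457) and upper-quartile scaling (-0.23, 0.0442), STX17 (0.28, adjusted p 0.0377) with eBayes without the trend, and ATG5 (0.30, adjusted p 0.0480) under the replicate block. For these the highest adjusted p over the alternatives was 0.532, 0.237, 0.201 and 0.195.

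The replicate numbers are shared by the groups, but nothing says that they mark a shared culture. Deviations of same-numbered libraries correlated at r = 0.123 over 12191 genes. Under the replicate block, 5393 genes (44.2%) and 19 members (46.3%) were called, the members 12 higher and 7 lower. All 5 ATG8 genes passed, with an adjusted p of 0.0284 for MAP1LC3B, 0.00769 for GABARAP and 0.0102 for GABARAPL2.

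ATG4C rested on 34 to 61 reads per library, the fewest of any member. With 2 libraries a group, the standard error of a member's log2 fold change ran from 0.06 to 0.19.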
